A study of Mus musculus with 4 samples.

Results

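Transcript levels of matrix metalloproteinases and of their tissue inhibitors were examined in cultured mouse embryonic fibroblasts. The members were 9 genes, 6 encoding metalloproteinases (Mmp2, Mmp3, Mmp9, Mmp11, Mmp13 and Mmp14) and 3 encoding inhibitors (Timp1, Timp2 and Timp3), chosen by symbol from the 8251 genes named by the array's annotation. Their 14 probe sets, each annotated to a single symbol, were drawn from 12488 on the array. Total RNA was profiled on 4 Affymetrix U74Av2 arrays, with 1 array for each of wild-type unstimulated cells, wild-type cells with TNFa, XIAP knockout unstimulated cells and XIAP knockout cells with TNFa. TNFa (tumour necrosis factor, TNF below) was given to confluent cells at 20 ng/ml for 4 hours, and Xiap encodes an inhibitor of caspases. The sources used here do not give the strain, the age of the embryos, the number of embryos behind each culture or the deleted part of Xiap. With 1 array per group, differences between 2 arrays carry no replicate error and no test, and precision is limited by the number of arrays.

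Matrix metalloproteinases are zinc-dependent proteases that cut collagens, proteoglycans and other components of the extracellular matrix. They are made as inactive precursors, held closed by a cysteine in the propeptide, and are activated when the propeptide is removed. Tissue inhibitors of metalloproteinases bind the active site and block it. Fibroblasts are a main source of both groups, and inflammatory cytokines are known to raise transcription of the collagenase and stromelysin genes through promoter sites for AP-1 and Ets factors.

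Values are MAS5 signals, a linear brightness per probe set scaled to the same trimmed mean on each array. Signals at or below 92.5, the 40th percentile of all non-control signals, were treated as below a floor and have no order. Where a gene had several probe sets, the one brightest on average stood for it, and fold changes that touch the floor are given as bounds. Of the 14 probe sets, 6 lay above the floor on all 4 arrays and 6 on none. All 9 genes were on the array and 8 were measured on at least 1 array, Mmp2 being the exception.

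Promoter sequences are shown for Mmp13 and Mmp3, the members at least 2-fold higher under TNF in both genotypes, and for Timp1 as an inhibitor for comparison. RefSeq promoters (build GRCm38.p6) were found for 7 of the 9 members, and the 250 bases before the annotated start were searched. The motifs were TGANTCA (the AP-1 site, the same on both strands), AGGAAG (the PEA3 type of Ets site, both strands) and TATAAA (the TATA box, both strands). The letters of these motifs do not overlap in the windows shown, and they are printed in capitals. The Mmp13 window is chr9:7272264-7272513, the Mmp3 window chr9:7445572-7445821 and the Timp1 window chrX:20869916-20870165, all on the plus strand and printed 5′ to 3′.
Mmp13: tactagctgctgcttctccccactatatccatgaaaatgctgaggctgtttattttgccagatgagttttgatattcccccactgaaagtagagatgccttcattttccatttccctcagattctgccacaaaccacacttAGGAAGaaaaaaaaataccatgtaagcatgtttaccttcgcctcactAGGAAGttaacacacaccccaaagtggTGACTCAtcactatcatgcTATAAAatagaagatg
Mmp3: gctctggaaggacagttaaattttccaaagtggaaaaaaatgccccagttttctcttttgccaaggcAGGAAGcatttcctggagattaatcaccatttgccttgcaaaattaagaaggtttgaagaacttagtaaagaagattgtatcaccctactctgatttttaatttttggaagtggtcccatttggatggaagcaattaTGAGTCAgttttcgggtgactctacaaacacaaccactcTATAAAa
Timp1: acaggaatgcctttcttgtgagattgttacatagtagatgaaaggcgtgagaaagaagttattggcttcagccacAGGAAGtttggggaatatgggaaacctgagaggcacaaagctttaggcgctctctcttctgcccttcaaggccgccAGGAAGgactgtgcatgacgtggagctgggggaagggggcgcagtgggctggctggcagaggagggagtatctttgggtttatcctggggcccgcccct

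TGANTCA was present in 2 of the 7 members' windows, those of Mmp13 and Mmp3, and in 6.75% of 32851 RefSeq windows of the same length. Its first letter lay 35 bases before the start of Mmp13 and 46 bases before that of Mmp3. TATAAA was found in the same 2 members, at 16 and 7 bases before the start, and in 12.4% of all windows. AGGAAG was found in 5 of the 7 members (Mmp3, Mmp13, Mmp14, Timp1 and Timp3) and in 29.5% of all windows. Mmp13 and Timp1 each held 2 copies, at 109 and 62 bases before the start in Mmp13 and at 175 and 99 in Timp1. Mmp11 and Timp2 held none of the 3 motifs. A match of letters is a description of the window and not evidence of binding. Across measured genes with a promoter entry, 18 of 288 with TGANTCA (6.25%) were past 2-fold upwards in TNF-treated wild-type cells, beside 123 of all 4783 (2.57%). In knockout cells the counts were 13 of 278 (4.68%) beside 68 of 4751 (1.43%). With TATAAA they were 20 of 406 (4.93%) in wild-type and 13 of 410 (3.17%) in knockout cells. With AGGAAG they were 40 of 1525 (2.62%) and 20 of 1516 (1.32%), close to the shares over all genes. These counts include Mmp3 and Mmp13 and were not tested. The median log2 change of genes with TGANTCA was near that of all genes with a promoter entry. It was -0.08 beside -0.09 in wild-type and -0.05 beside -0.04 in knockout cells.

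**Figure D1:**
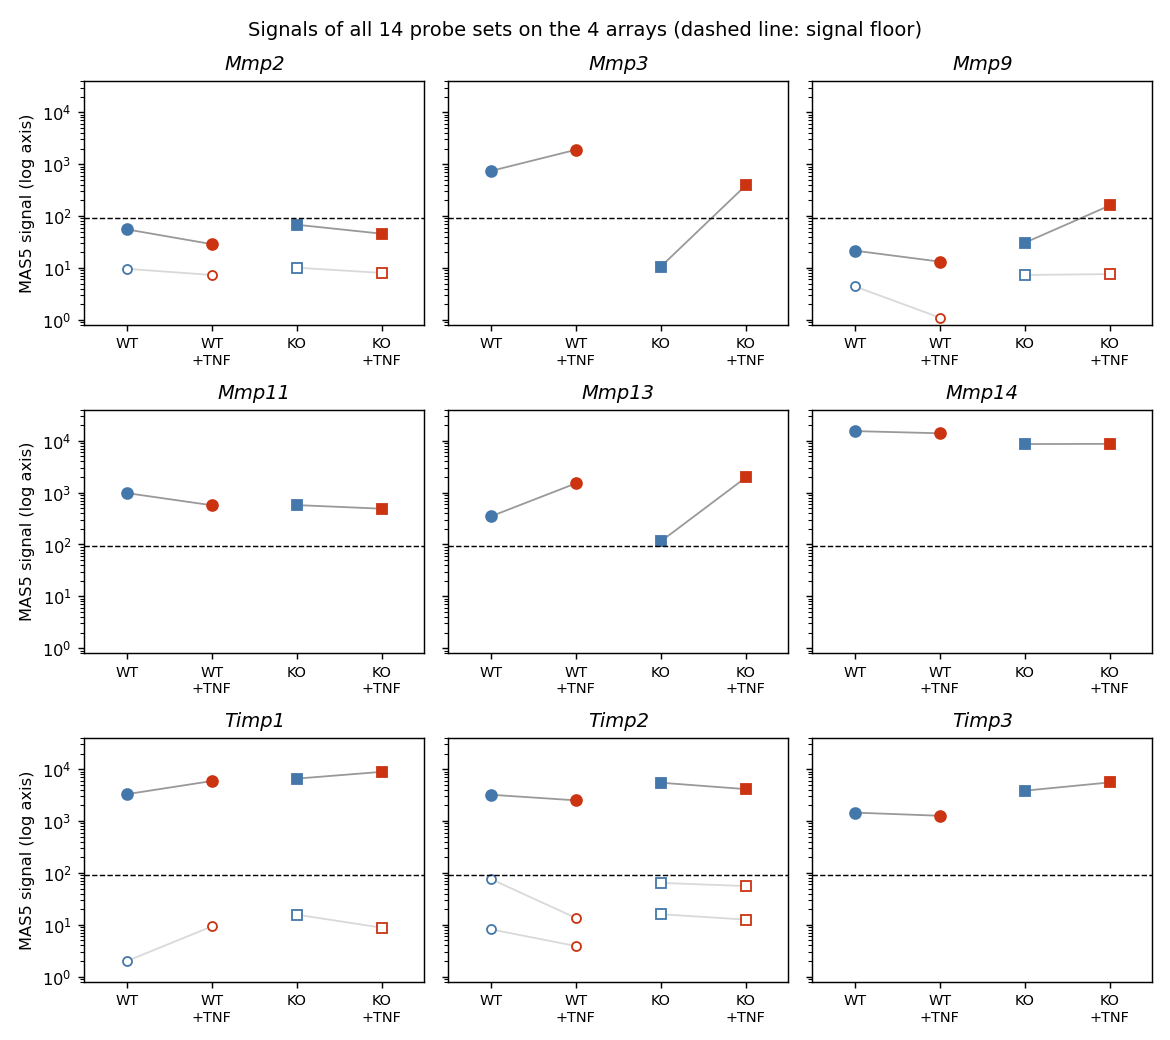
MAS5 signals on a log axis for all 14 probe sets of the 9 members on the 4 arrays: wild-type (WT, circles) and knockout (KO, squares), unstimulated (blue) and with TNF (red). Filled symbols are the probe set used for the gene, open symbols are other probe sets of it, and the dashed line is the floor of 92.5; Mmp13 and Mmp3 rise from left to right within both genotypes, and every open symbol lies below the floor.

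Mmp13 encodes collagenase-3, the main interstitial collagenase of the mouse. Its single probe set gave signals of 348 in unstimulated wild-type cells, 1506 in wild-type cells with TNF, 115 in unstimulated knockout cells and 1960 in knockout cells with TNF. All 4 signals were above the floor, and both TNF arrays were above both unstimulated arrays. The signal with TNF was 4.33-fold that without it in wild-type cells (log2 2.11) and 17.0-fold in knockout cells (log2 4.09). In bulk RNA, fewer cells with a transcript and less transcript per cell cannot be told apart. Among all measured genes these were the 43rd highest change of 5911 and the 6th highest of 5868. For scale, the central 95% of log2 changes among the 500 genes nearest in signal ran from -0.82 to 0.99 in wild-type and from -0.52 to 0.66 in knockout cells, a spread between genes and not between replicates.

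Mmp3 encodes stromelysin-1, which cuts proteoglycans and fibronectin and can activate other metalloproteinase precursors. Its probe set gave 738 and 1891 in wild-type cells without and with TNF, and 10.6 and 391 in the corresponding knockout cells. The unstimulated knockout signal was below the floor, and both knockout signals lay below both wild-type signals. With TNF the signal was 2.56-fold higher in wild-type cells (log2 1.36) and at least 4.23-fold higher in knockout cells.

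Mmp9 encodes gelatinase B, a protease of denatured and basement membrane collagens. Its brighter probe set was below the floor on 3 arrays, at 21.5, 13.2 and 30.6 in wild-type, wild-type TNF and unstimulated knockout cells. It reached 159.9 in knockout cells with TNF, at least 1.73-fold the unstimulated knockout signal. The second probe set was between 1.1 and 7.6 on all 4 arrays, so the signal rests on a single probe set on a single array.

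The remaining metalloproteinases showed no 2-fold change with TNF. Mmp14, the membrane-bound enzyme that activates the Mmp2 precursor, had signals of 15336 and 13918 in wild-type and 8624 and 8703 in knockout cells, without and with TNF. Its log2 changes were -0.14 and 0.01. Mmp11, or stromelysin-3, went from 979.8 to 570.5 in wild-type and from 575 to 489 in knockout cells, log2 changes of -0.78 and -0.23. Mmp2, gelatinase A, had signals of 28.7 to 67.9 on its brighter and 7.3 to 10.1 on its dimmer probe set, all below the floor. A probe set below the floor does not show that a transcript is absent: the probe set of Vim, which encodes the abundant fibroblast filament protein vimentin, gave only 42.1 to 94.5.

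Among the inhibitors, Timp1, a soluble inhibitor known to respond to cytokines, had signals of 3299 and 5913 in wild-type and 6587 and 8894 in knockout cells, without and with TNF. The TNF array was the higher in both genotypes, by 1.79-fold (log2 0.84) and 1.35-fold (log2 0.43). Timp2, which both inhibits Mmp14 and helps it activate Mmp2, had 3219 and 2509 in wild-type and 5489 and 4125 in knockout cells, log2 changes of -0.36 and -0.41. Timp3, the inhibitor that binds to the matrix, had 1457 and 1265 in wild-type and 3857 and 5567 in knockout cells, and its log2 changes were of opposite sign at -0.20 and 0.53. The other probe set of Timp1 and the other 2 of Timp2 were below the floor on every array, at 2.0 to 76.4.

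In wild-type cells, 2 of 7 measured members, Mmp3 and Mmp13, were past 2-fold upwards with TNF, as were 2.64% of all 5911 measured genes. In knockout cells the same 2 of 8 passed on floored values, against 1.48% of 5868 genes. Mmp9 was not counted there, but its change of at least 1.73-fold is a bound. No member was 2-fold lower in either genotype, against 2.61% of all genes in wild-type cells and 0.409% in the knockout. The members' median log2 change was -0.14 in wild-type cells, beside -0.10 over all genes, and 0.48 in knockout cells, beside -0.04. Scaling the arrays to equal medians moved the wild-type median of all genes from -0.10 to 0.18. It turned the wild-type changes of Mmp14 and Timp3 to 0.14 and 0.08 and took Timp1 to 1.12, past 2-fold, although relative to the median of all genes Timp1 stood at 0.94 before and 0.95 after.

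**Figure D2:**
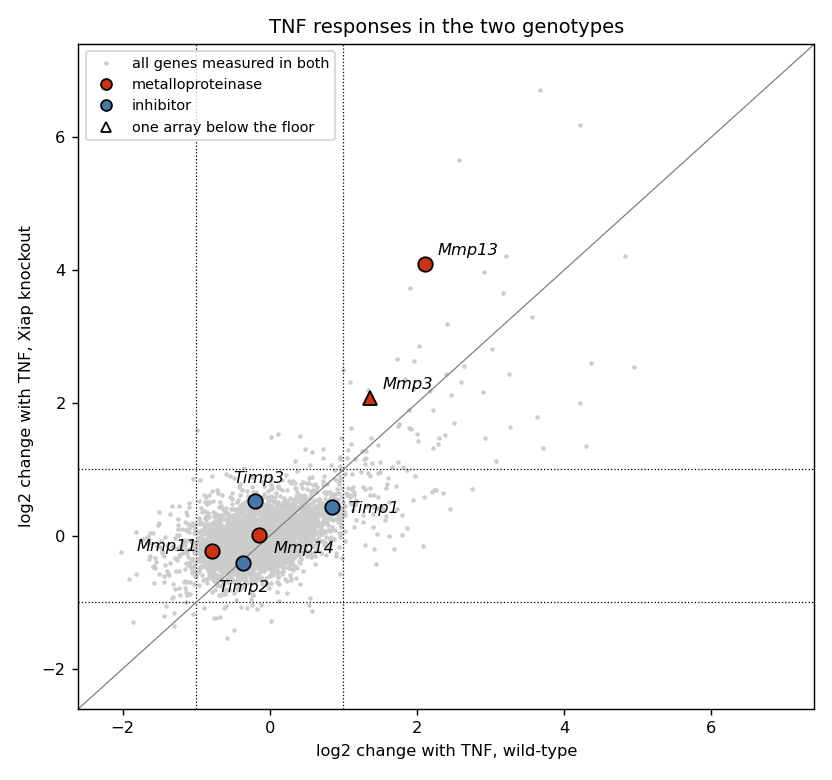
Log2 change with TNF in wild-type (x axis) against knockout cells (y axis) for all genes measured in both (grey) and for 7 members (red, metalloproteinases; blue, inhibitors; triangle, an array below the floor). Dotted lines mark 2-fold and the diagonal marks equal changes; Mmp13 (2.11 and 4.09) and Mmp3 (1.36 and at least 2.08) lie past 2-fold in both genotypes, and the other 5 members lie within it.

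All 4 arrays and 6174 measured genes entered an additive limma model with terms for TNF and genotype. Its only residual degree of freedom (1 for each gene) is the unequal response of the genotypes, so the errors come mainly from pooling over genes, with no replicate cultures behind them. For the TNF effect, 2 of 8 members rose at an adjusted p under 0.05, where 1.28% of all genes rose, and none fell, where 0.162% did. Mmp13 rose by 3.10 on the log2 scale (SE 0.42, limma adjusted p = 0.0227) and Mmp3 by 1.72 (SE 0.23, limma adjusted p = 0.0202), and both pairs of arrays showed the direction for each. The Mmp3 estimate includes the unstimulated knockout array at the floor. Timp1 had a change of 0.64 (SE 0.12, limma adjusted p = 0.0631), Timp2 of -0.39 (SE 0.09, limma adjusted p = 0.118) and Mmp11 of -0.51 (SE 0.19, limma adjusted p = 0.296), none past the threshold. Timp1 passed it with quantile normalization (limma adjusted p = 0.0158) and with equal medians (limma adjusted p = 0.0232), within a range of 0.0158 to 0.406 over 7 alternatives. The unadjusted p of the lower changes was 0.00372 for Timp2 and 0.0312 for Mmp11. Without the intensity trend in the variance prior, the limma adjusted p was 0.150 for Mmp13 and 0.108 for Mmp3, and neither was called. Over all 7 alternatives it ran from 1.18e-43 to 0.218 for Mmp13 and from 3.4e-13 to 0.157 for Mmp3. The lowest values came from equal medians, where the prior degrees of freedom were infinite.

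The unstimulated cultures of the genotypes were then compared, which asks what the knockout culture carried before TNF. Mmp3 was at least 7.98-fold lower in knockout cells (738 against 10.6) and Mmp13 was 3.02-fold lower (348 against 115, log2 -1.60). Timp3 was 2.65-fold higher (3857 against 1457, log2 1.40), and Timp1 lay just inside 2-fold (6587 against 3299, log2 1.00 after rounding, 1.997-fold). Timp2 was 1.71-fold higher, while Mmp14 was 1.78-fold and Mmp11 1.70-fold lower. Thus 1 of 7 measured members was at least 2-fold higher, against 4.55% of 6062 genes, and 2 were lower, against 4.7%. The Mmp13 ratio lay inside the central 95% of the 500 genes nearest in signal (-1.81 to 2.05), while those of Mmp3 (range -1.60 to 1.75) and Timp3 (range -1.05 to 0.97) lay outside.

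With TNF, Mmp3 was 4.83-fold lower (391 against 1891, log2 -2.27) and Timp3 4.40-fold higher (5567 against 1265, log2 2.14) in knockout than in wild-type cells. The Mmp13 signals of 1960 and 1506 differed by only 1.30-fold, with the knockout array the higher. Timp1 (log2 0.59) and Timp2 (log2 0.72) were again higher in the knockout, and Mmp14 (log2 -0.68) and Mmp11 (log2 -0.22) again lower. On floored values 1 of 8 measured members was at least 2-fold higher, against 5.62% of 5852 genes, and 1 was lower, against 5.01%. Mmp9 was not counted as higher. Its ratio of at least 1.73-fold (159.9 against 13.2, below the floor) is a bound and does not show a difference under 2-fold. All 3 inhibitors were above and Mmp3, Mmp11 and Mmp14 below wild-type in both states, while Mmp13 changed side.

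**Figure D3:**
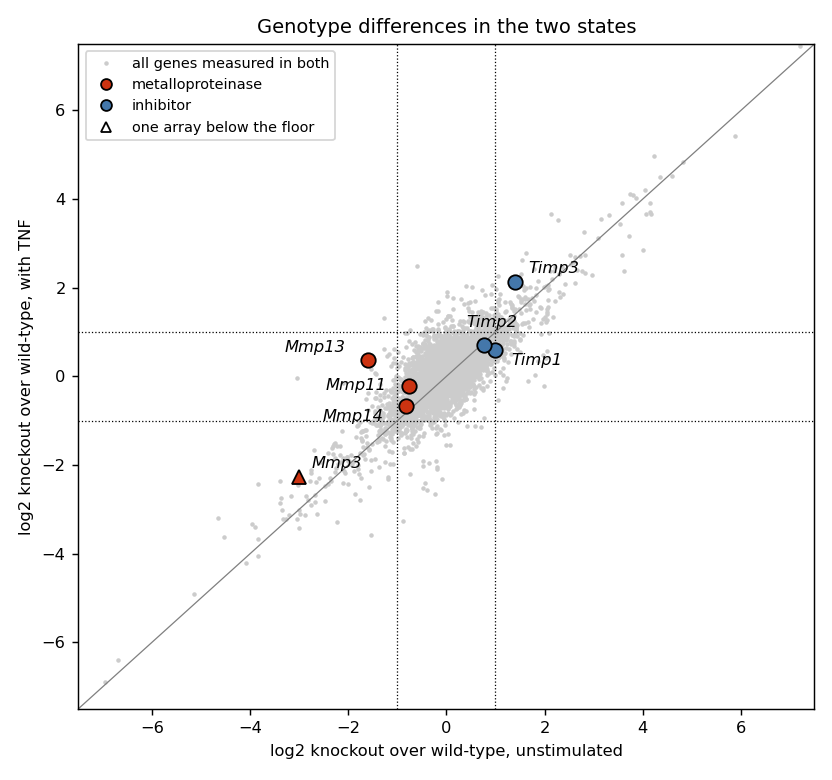
Log2 ratio of knockout to wild-type signal without TNF (x axis) and with TNF (y axis) for all genes measured in both states (grey) and for 7 members (red, metalloproteinases; blue, inhibitors; triangle, an array below the floor). Dotted lines mark 2-fold and the diagonal marks equal ratios; Timp3 (1.40 and 2.14) lies at the upper right, Mmp3 (a bound on the x axis, and -2.27 on the y axis) at the lower left, and Mmp13 (-1.60 and 0.38) off the diagonal.

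In the additive limma model 5 of the 8 members differed between genotypes, against 21.8% of all 6174 genes. The 3 inhibitors were higher in knockout cells (11.4% of all genes were), Timp3 by 1.77 on the log2 scale (SE 0.17, limma adjusted p = 0.00112), Timp1 by 0.79 (SE 0.12, limma adjusted p = 0.00485) and Timp2 by 0.74 (SE 0.09, limma adjusted p = 0.00233). Mmp3 and Mmp14 were lower (10.4% of all genes were), with changes of -2.63 (SE 0.23, limma adjusted p = 0.000675) and -0.75 (SE 0.09, limma adjusted p = 0.00224). Without and with TNF, the genotype ratios of Timp1, Timp2 and Mmp14 lay inside the central 95% of the 500 genes nearest in signal. The Mmp3 estimate holds the unstimulated knockout array at the floor, and was -3.72 with the floor at the 20th percentile and -1.81 with it at the 60th, called in each case. Mmp11 had a change of -0.50 (SE 0.19, limma adjusted p = 0.109) and Mmp13 of -0.61 (SE 0.42, limma adjusted p = 0.357). Mmp9, at the floor on 3 arrays, has no interpretable estimate in this model. When the probe sets of a gene were averaged, Timp1 and Timp2 were no longer called (changes of 0.40 and 0.25), since their other probe sets were below the floor; over all 7 alternatives the limma adjusted p ran from 0.000988 to 0.111 for Timp1 and from 0.000735 to 0.315 for Timp2. The labels name no replicate cultures of a genotype, and genotype and culture cannot be told apart.

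**Figure D4:**
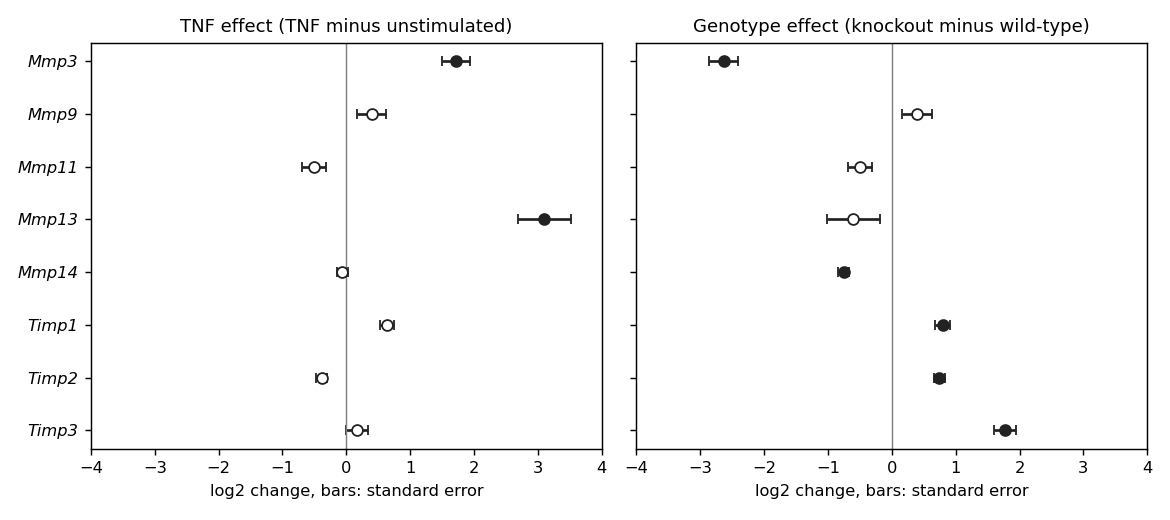
Log2 effects of TNF (left) and of the knockout (right) from the additive limma model for the 8 measured members, with bars of 1 standard error; the points of Mmp9 rest on 3 arrays at the floor. Filled points passed an adjusted p of 0.05; Mmp3 and Mmp13 do so for TNF, and Mmp3, Mmp14 and the 3 inhibitors do so for genotype.

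The response to TNF was 3.93-fold larger in knockout cells for Mmp13 (log2 difference 1.98), the 5th largest of 6174 genes. On floored values Mmp13 was the only 1 of 8 members past 2-fold in this direction, against 2.53% of all genes. No member passed in the other (1.13%). The values of Mmp3 and Mmp9 touch the floor and do not show a difference under 2-fold. The Mmp13 difference lay in the unstimulated signals, 348 and 115, more than in those with TNF, 1506 and 1960. Raising the floor to the 60th percentile puts the unstimulated knockout signal below it, and the log2 difference becomes a lower bound of 0.64. For Mmp3 the floored difference was 0.72, a lower bound because the unstimulated knockout signal was below the floor. It was 2.90 with the floor at the 20th percentile and -0.93 with it at the 60th, so its sign on floored values depended on the floor. These too are lower bounds, and a negative lower bound does not show a smaller response in the knockout. The differences were 0.73 for Timp3, 0.55 for Mmp11, 0.15 for Mmp14, -0.05 for Timp2 and -0.41 for Timp1. For Mmp9, below the floor on 3 arrays, none can be given. No test of a difference of response was possible with 1 array per group.

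Members whose floored signals spanned at least 4-fold were matched to the genes with the most similar course over the 4 arrays, by the root-mean-square distance between centred log2 signals. For Mmp13, among 5129 genes above the floor on all arrays, these were Ccl9 (distance 0.37), Irf1 (0.37) and Cx3cl1 (0.46). As for Mmp13, all 3 had their highest signals on the TNF arrays and their lowest on the unstimulated knockout array, Irf1 for example at 482 and 2566 in wild-type and 302 and 2748 in knockout cells. For Mmp3, whose unstimulated knockout signal entered at the floor, the nearest of 5130 genes were the probe sets annotated to Wdr92 (distance 0.30), Fst (0.47) and Plpp3 (0.54). With TNF in wild-type cells Wdr92 went from 4195 to 18941 and Fst from 470 to 1840, but Plpp3 only from 1521 to 1645. For Timp3 they were Phlda3 (0.17), Ccng1 (0.18) and Nxn (0.18), and each was higher on both knockout arrays. These are descriptions over 4 arrays. The genes were chosen on the same signals, so a shared order is not a separate result.

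On mouse chromosome 9 the RefSeq gene order places Mmp13 and Mmp3 among 10 neighbouring metalloproteinase genes, 6 of which had a probe set. The 4 that were not members, Mmp12, Mmp10, Mmp8 and Mmp7, had signals of 4.3 to 27.8 for the probe set used and were below the floor on every array. The flanking genes Dcun1d5 and Tmem123 had signals of 1343 to 1847 and 1892 to 2391. Elsewhere, Mmp24 was below the floor on all arrays. Mmp16, a membrane-bound enzyme, and Mmp17 had log2 changes with TNF of -0.75 and -0.89 in wild-type and of -0.20 and -0.10 in the knockout. The Mmp17 signal was below the floor in wild-type cells with TNF (35.8). Its wild-type change and its knockout to wild-type ratio under TNF (log2 0.69) are therefore bounds, which do not show a change under 2-fold. On floored values neither gene passed 2-fold in any comparison.

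The plasminogen system activates metalloproteinase precursors, with Plau and Plat encoding the plasminogen activators. None of its 6 measured genes passed 2-fold with TNF in either genotype, and counts of 0 are near the background. Among all genes 2.64% were higher and 2.61% lower in wild-type cells, and 1.48% and 0.409% in the knockout. Plau was below the floor on every array, and Plat had signals of 3013 and 2090 in wild-type and 2037 and 1853 in knockout cells. Plg alone passed 2-fold between genotypes, at 191.7 against 92.8 without TNF (log2 -1.05), close to the floor. Of 10 measured regulators of metalloproteinases, Spock2, which encodes a matrix proteoglycan, was higher in the knockout by at least 1.04 on the log2 scale without TNF and at least 1.41 with it. Thbs2, which encodes thrombospondin-2, was lower in the knockout in both states (log2 -1.58 and -2.50) and 2-fold lower with TNF within the knockout (1672 to 813). Between the TNF arrays Pcsk6, a proprotein convertase gene, was lower in knockout than in wild-type cells (log2 -1.07). Its log2 changes with TNF were 0.36 in wild-type and 0.23 in knockout cells. In the limma fit 3 of these 10 were higher in the knockout and 3 lower, against 11.4% and 10.4% of all genes. Reck, a membrane-anchored inhibitor, was among the lower (change -0.58, SE 0.16, limma adjusted p = 0.0470), and Bsg, which encodes the metalloproteinase inducer basigin, was among the higher.

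Factors of the AP-1, Ets and Runx families, known to act on metalloproteinase promoters, were measured for 14 genes. In wild-type cells 4 of 14 were at least 2-fold higher with TNF, against 2.64% of all genes: Fosl1 (116 to 572), Junb (357 to 1748), Fos (122 to 550) and Jun (169 to 352). In knockout cells 2 of 12 passed, against 1.48%: Fosl1 (149 to 411) and Junb (391 to 1015), while Fos was below the floor on both knockout arrays at 46.6 and 49.7. Runx1 and Elk3 were 2-fold higher in the unstimulated knockout (log2 1.96 and 1.06). Fosl1 and Junb rose in the limma fit by 1.88 (SE 0.27, limma adjusted p = 0.0285) and 1.83 (SE 0.23, limma adjusted p = 0.0161). On floored values 2 of 14 had a response at least 2-fold lower in knockout cells, against 1.13% of all genes. At least 2-fold higher were 0, against 2.53%. The 2 were Fos (log2 difference -2.17, both knockout arrays below the floor) and Runx1 (-1.49). Runx1 went from 318 to 465 in wild-type and from 1240 to 647 in knockout cells with TNF. The Mmp13 response was the larger in knockout cells, whereas those of Fosl1 and Junb were the smaller there (log2 differences -0.83 and -0.92). A link between these responses was not tested.

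Of the markers fixed for the labelled cell type, Col1a1, a collagen gene, had signals of 21983 to 25901. Of 10 fibroblast markers 8 or 9 were above the floor on each array, and their summed signal, mostly from the collagen genes Col1a1, Col1a2 and Col3a1, was 60164 to 63838. Thy1 (1120 and 308 without TNF) and Fap (314 and 42.9) were lower in the knockout and S100a4 (1351 and 4106) higher, so the markers themselves differed between the cultures. The leukocyte markers Ptprc, Adgre1, Itgam and Tyrobp were below the floor on all arrays, whereas Cd14 (1534 to 2402), Csf1r (114 to 373) and Cd68 (113 to 145) were above it on all. On each array 3 to 5 of 9 markers of that list were above the floor, and the summed signal was 1919 to 3119. Csf1r was past 2-fold lower with TNF in wild-type cells (355 to 114, log2 -1.64). Under TNF it was past 2-fold higher in knockout than in wild-type cells (log2 1.36). Of 6 endothelial markers 1 to 3 were above the floor, with a summed signal of 2138 and 2059 in wild-type and 733 and 548 in knockout cells, most of it from Eng. Kdr was lower with TNF in wild-type cells by at least 1.03 on the log2 scale (189, and 72.9 with TNF, below the floor). Cdh1 alone of 6 epithelial markers was above the floor, and 1 or 2 of 5 cartilage and bone markers on the array were. The part of these differences in the results for the 9 members was not tested.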

How the data were processed

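The deposited values are array intensities, 1 per probe set and array, made by the authors with MAS5 (per the submitters' processing notes). The sources used here give neither its version nor detection calls. The 2% trimmed means of the 4 columns were 500.3. Probe sets were named from the platform annotation, in which 10833 carried 1 gene symbol, 396 several and 1193 none; 66 control probe sets were left out. Of 8251 genes, 8237 matched the RefSeq gene table. Signals were floored at 92.5 and log2-transformed, and called means at least 2-fold between 2 arrays. limma 3.58.1 (lmFit, eBayes with trend, 2-sided, Benjamini-Hochberg over 6174 genes, threshold 0.05) fitted genotype and TNF additively. The fit was also run on simulated data with independent noise, no floor and no unequal response of the genotypes. That run therefore does not show that the p-values hold here.

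Named genes were all members, genes past 2-fold in the lists of other metalloproteinase and plasminogen genes, up to 4 past 2-fold per comparison in each other list, and the 3 nearest in course; values of other genes (such as Vim, the marker genes and those flanking the cluster) were added after the data were seen. The members and lists were chosen with earlier results of these data known. Alternatives were equal medians, quantile normalization, floors at the 20th or 60th percentile, no floor (pseudocount 16), the mean of all probe sets and no intensity trend.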

Additional observations from a re-analysis of the deposited data

How the results depend on the processing

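No paired analysis was possible because each group holds 1 array, and for the same reason no replicate could be left out. Of the members' log2 changes none that passed 2-fold or the limma threshold changed sign under any alternative. Counts of genes past 2-fold moved with the floor. At the 20th percentile, at the 60th percentile and with no floor, genes at least 2-fold either way numbered 894, 135 and 707 for TNF in wild-type cells (main 310), and 357, 62 and 288 in knockout cells (main 111). In the same order they were 981, 316 and 850 between unstimulated genotypes (main 561), 1136, 330 and 987 under TNF (main 622), and 844, 70 and 687 for the difference of response (main 226). With the 60th percentile 1 member was 2-fold higher with TNF in knockout cells (main 2; Mmp3 fell to a bound of 0.43), 1 was lower in the unstimulated knockout (main 2; Mmp13 -0.26) and 0 had a larger response there (main 1). With the 20th percentile or no floor, 3 members had a larger response in the knockout (Mmp13 with Mmp3 and Mmp9), and 2 were higher under TNF in the knockout (main 1), the second being Mmp9 at a log2 ratio of 2.96 and 2.59. With equal medians 2 members were higher in the unstimulated knockout (main 1), Timp1 reaching 1.03.

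The share of higher calls also moved. For TNF in wild-type cells 156 genes were higher and 154 lower, but 192 and 82 with quantile normalization, 283 and 68 with equal medians, 251 and 643 with the 20th percentile, 104 and 31 with the 60th, and 212 and 495 with no floor. In knockout cells 87 and 24 became 191 and 166, 55 and 7, and 164 and 124 under those 3 floors. Under TNF between genotypes 329 and 293 became 240 and 441 with equal medians. For the difference of response 156 and 70 became 102 and 102 with quantile normalization, 88 and 148 with equal medians, and 34 and 36 with the 60th percentile.

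The limma TNF effect called 89 genes, but 156 with quantile normalization, 371 with equal medians, 6 with the mean of all probe sets and 18 with no intensity trend, the last 2 all higher. Of the members it called 2 higher, 1 with each other floor (20th, 60th or none; Mmp13 in each) 0 with the mean of all probe sets or no trend, and 3 with quantile normalization or equal medians, Timp1 being added (changes of 0.62 and 0.80). With quantile normalization 1, Timp2, was lower (-0.44). The genotype effect called 1347 genes, 892 with the mean of all probe sets and 883 with no trend; 1 member in place of 3 was then higher with the mean of all probe sets, Timp3, and 4 in place of 2 were lower with equal medians, Mmp11 and Mmp13 being added. Signals near the floor, as for Mmp9 and unstimulated knockout Mmp13, limit the size of a fold.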

Other observations

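None of 11 measured cathepsins and cystatins passed 2-fold with TNF in either genotype. That count is near the background, with 2.64% of all genes higher and 2.61% lower in wild-type cells, and 1.48% and 0.409% in the knockout. Between the unstimulated cultures 3 of 12 were at least 2-fold lower in the knockout, against 4.7% of all genes, and 1 was higher, against 4.55%. Ctsk, the collagen-degrading cathepsin of bone and fibroblasts, had signals of 1796 and 2000 in wild-type and 323 and 283 in knockout cells, without and with TNF. It was lower by limma (change -2.65, SE 0.15, adjusted p = 0.000116). Ctsa (5095 and 2184 without TNF) and Ctsc (203, and below the floor in the knockout) were also lower, and Ctsh was higher, with 70.1 and 18.0 in wild-type and 541 and 539 in knockout cells. Of ADAM and ADAMTS genes, 8 measured in wild-type and 6 in knockout cells, none passed 2-fold with TNF, which is again near the background. Adam12, a membrane-bound metalloproteinase, was higher in the knockout in both states (143 and 152 against 438 and 426).

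Genes for substrates of these proteases showed no 2-fold change with TNF in either genotype (0 of 21 measured each time). Over all genes 2.64% were higher and 2.61% lower in wild-type cells, and 1.48% and 0.409% in the knockout, so counts of 0 are near the background. Between genotypes the limma fit called 4 of 22 higher and 7 lower, against 11.4% and 10.4% of all genes. Vcan, a large proteoglycan, was the furthest above wild-type (258 and 1755 without TNF, log2 2.77), and Dcn and Lum, small leucine-rich proteoglycans, were the furthest below (log2 -6.95, and a bound of -3.02 for Lum, without TNF). Nid1, a basement membrane linker, had log2 ratios of -1.35 and -1.05 without and with TNF, and Col6a2, a collagen VI chain, passed 2-fold between the TNF arrays (log2 1.16).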
